A study of Homo sapiens with 6 samples.

Results

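The ERBB family of receptor tyrosine kinases was described here through 10 genes among the 19202 of the count table. They are the receptors EGFR, ERBB2, ERBB3 and ERBB4, the ligands NRG1, AREG, EREG, HBEGF and TGFA, and the inhibitor ERRFI1, each taken by its gene symbol. The genes were picked with the difference between resistant and control cells already known. Their values in that comparison are therefore given as a description, without a p-value for any of them. Only the count of them that passed is given, and nothing is read from it. RNA sequencing had been carried out on MHCC97H, a human hepatocellular carcinoma line, as 3 sorafenib-resistant libraries and 3 libraries of sorafenib-sensitive control cells. Sorafenib is an oral inhibitor of several kinases used in advanced liver cancer. How resistance was raised, whether the drug was present at harvest, whether the resistant cells were a clone or a pool, and whether replicates were separate cultures, is not stated by the labels. The p-values below thus set the difference between the groups against the scatter of the libraries within each group, and that scatter may be technical.

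ERBB receptors signal as pairs. EGFR binds AREG, EREG, TGFA and HBEGF, ERBB3 and ERBB4 bind neuregulins such as NRG1, and ERBB2 has no known ligand of its own but partners the others. ERBB3 has little kinase activity and passes its signal through a partner, mainly to phosphoinositide 3-kinase. The ligands are made as membrane-bound precursors that proteases of the ADAM family release. ERRFI1, also called MIG6, is induced by receptor signalling and blocks the EGFR kinase domain, and EGFR is abundant in normal hepatocytes.

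Libraries held 1913469 to 5345272 counts, the fewest in control replicate 1. CPM here are counts scaled to library size. The first principal component of log2 CPM took 49.7% of the variance and separated the groups. HNF4A, a transcription factor of hepatocytes, averaged 41.4 ± 4.74 CPM in resistant and 39.8 ± 1.89 CPM in control cells (SD, n = 3 each). APOA1 and TTR were under 1 CPM on average in both groups. In resistant cells ALB averaged 5.53 ± 3.50, APOB 8.08 ± 5.01 and SERPINA1 2.98 ± 0.99 CPM. In control cells ALB averaged 17.3 ± 3.75, APOB 23.2 ± 5.79 and SERPINA1 8.03 ± 0.75 CPM (SD, n = 3 each). TF was also lower in all resistant libraries, and AFP overlapped between the groups. The 8 hepatocyte markers summed to 71.4 to 91.2 CPM in resistant libraries and to 113 to 126 CPM in control libraries. The 5 epithelial markers, led by KRT8 and KRT18, summed to 1781 to 2141 CPM in resistant and 1876 to 2408 CPM in control libraries. Among them CDH1 averaged 8.86 ± 1.68 CPM in resistant and 20.9 ± 17.5 CPM in control cells (SD, n = 3 each). Control replicate 1 had 41.1 CPM of CDH1. EPCAM averaged 0.45 CPM in resistant and 2.23 CPM in control cells. The 5 endothelial markers, all seen at 1 CPM or more in some library, summed to 40.6 to 133 CPM in resistant and 50.2 to 68.2 CPM in control libraries. VWF and CDH5 stood at 26.2 and 19.2 CPM in resistant replicate 3, against at most 1.41 CPM for VWF and 0 CPM for CDH5 in the other resistant libraries. Fibroblast markers (7) summed to 11.8 to 41.5 CPM in resistant and 14.9 to 37.8 CPM in control libraries, and leukocyte markers (6) to 10.1 to 11.1 CPM in resistant and 6.40 to 11.4 CPM in control libraries. The part of these marker differences in the values below was not tested. Without resistant replicate 3, the log2 fold change (log2FC, resistant over control) was -1.63 for ERBB3, -1.30 for AREG and -0.47 for ERRFI1, beside -1.66, -1.21 and -0.47 from all 6 libraries. Leaving out that library does not bear on the hepatocyte markers, whose sum was lower in all resistant libraries.

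Among the receptors, ERBB3 separated the groups most widely. It had 18.4, 17.9 and 17.4 CPM in the resistant libraries, against 56.0, 56.5 and 57.5 CPM in the control libraries. Every resistant library lay far below every control library. The coefficient of variation was 2.84% in resistant and 1.31% in control cells. The libraries held 68, 76 and 85 counts of ERBB3 in resistant and 109, 300 and 196 in control cells. Counting error at such counts is larger than this spread, so the tightness is not read as a trait of the gene. The mean was 17.9 ± 0.51 CPM in resistant and 56.7 ± 0.74 CPM in control cells (SD, n = 3 each), 3.17-fold lower in resistant cells. The fit gave a log2FC of -1.66, standard error (SE) 0.18, and this stayed between -1.69 and -1.63 under all 15 alternatives that can move it. ERBB3 ranked 158 by size of log2FC among the 10804 genes tested. The level rested on 229 counts over the resistant and 605 over the control libraries. ERBB3 lies on the plus strand at chr12:56076799-56103505 in GENCODE 29 on GRCh38, where the protein-coding gene AC034102.2 overlaps its end on the same strand. The build used for the counts is unknown, so these spans only locate the genes. In such bulk libraries, fewer cells with a transcript and less of it per cell cannot be told apart.

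EGFR was the most abundant receptor per transcript length. It had 536, 663 and 626 CPM in the resistant libraries and 464, 550 and 482 CPM in the control libraries. The groups overlapped, since resistant replicate 1 lay below control replicate 2. The log2FC was 0.28 (SE 0.09), with means of 608 ± 65.3 CPM in resistant and 499 ± 45.4 CPM in control cells (SD, n = 3 each). EGFR lies on the plus strand at chr7:55019021-55211628 and holds the antisense gene EGFR-AS1 within its span. Reads of such pairs cannot be told apart here because the use of strand in counting is not given.

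ERBB2, the partner receptor without a ligand, had 22.7, 25.2 and 27.0 CPM in resistant libraries, against 20.6, 16.8 and 26.4 CPM in control libraries. Here the groups overlapped and the SE of 0.23 was about as large as the log2FC of 0.25, which ran from 0.07 without control replicate 2 to 0.46 without control replicate 3. PGAP3 and MIEN1 overlap ERBB2 on the other strand. ERBB4 was close to absent, with 0, 2 and 4 counts in resistant and 0, 8 and 4 counts in control libraries. It was the only one of the 10 genes that failed the filter on low counts, and no fold change is given for 6 against 12 counts.

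The balance among receptors differed accordingly. Levels of different genes are compared only per transcript length, as TPM, counts per length scaled to the same total in each library and computed with the longest coding transcript of GENCODE 29. ERBB3 made up 4.98, 3.98 and 4.06% of the summed receptor level in the resistant libraries, against 15.5, 13.8 and 15.1% in the control libraries. EGFR made up 87.4, 89.0 and 88.1% in the resistant and 77.4, 81.0 and 76.2% in the control libraries. The groups did not overlap in either share. The receptor sum itself overlapped, at 178 ± 22.4 TPM in resistant and 168 ± 9.52 TPM in control cells (SD, n = 3 each). ERBB2 stood above ERBB3 in resistant cells, at 1.73 ± 0.20 times its level per length, and below it in control cells, at 0.46 ± 0.10 times (SD, n = 3 each).

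**Figure D1:**
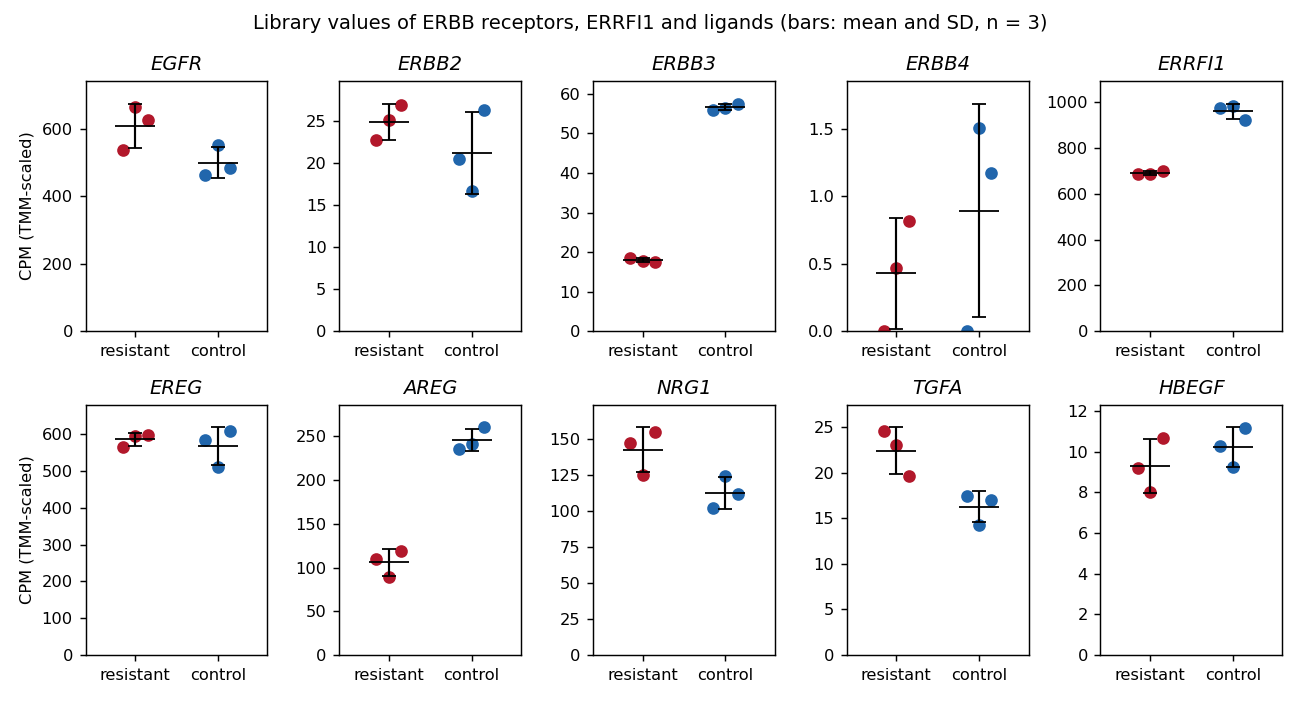
CPM of the 10 genes in each library (points; red, resistant; blue, control), with the mean and SD as black bars (n = 3 each) and each vertical axis starting at 0. ERBB3, AREG and ERRFI1 lie lower in all resistant libraries, and NRG1 and TGFA higher, while EGFR, ERBB2, ERBB4, EREG and HBEGF overlap between the groups.

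Of the ligands, AREG (amphiregulin) and EREG (epiregulin) had the highest levels per length, and they differed in how they compared between the groups. AREG had 110, 89.1 and 119 CPM in the resistant libraries, against 236, 242 and 260 CPM in the control libraries. All resistant libraries lay below all control libraries, with means of 106 ± 15.3 CPM in resistant and 246 ± 12.8 CPM in control cells (SD, n = 3 each). Resistant cells were thus 2.32-fold lower (log2FC -1.21, SE 0.11). EREG had 566, 595 and 599 CPM in the resistant and 584, 512 and 610 CPM in the control libraries. Those ranges overlapped, and the log2FC was 0.05 (SE 0.09), with -0.03 when control replicate 2 was left out. Per length, EREG therefore stood at 1.38, 1.79 and 1.35 times AREG in the resistant libraries, against 0.67, 0.57 and 0.63 times in the control libraries. The first-ranked ligand per length was thus EREG in every resistant library and AREG in every control library.

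AREG and EREG are neighbours. Both lie on the plus strand of chromosome 4, EREG at chr4:74365143-74388751 and AREG at chr4:74445134-74455009 (GENCODE 29, GRCh38), with 56.4 kb between them. Because the pair differed in its values despite this position, the 250 bases upstream of each start are shown, from RefSeq on GRCh38.p14, plus strand, at chr4:74444886-74445135 for AREG and chr4:74364895-74365144 for EREG. Capitals mark matches on either strand to 5 motifs: the TATA box TATAAA, the cyclic AMP response element TGACGTCA, the AP-1 element TGANTCA, the GC box GGGCGG and the TEAD element GGAATG.
AREG: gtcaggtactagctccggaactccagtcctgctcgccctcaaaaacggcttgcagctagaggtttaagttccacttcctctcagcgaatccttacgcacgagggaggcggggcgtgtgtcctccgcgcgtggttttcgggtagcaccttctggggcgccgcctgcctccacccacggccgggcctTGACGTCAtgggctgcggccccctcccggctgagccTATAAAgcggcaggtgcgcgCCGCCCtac
EREG: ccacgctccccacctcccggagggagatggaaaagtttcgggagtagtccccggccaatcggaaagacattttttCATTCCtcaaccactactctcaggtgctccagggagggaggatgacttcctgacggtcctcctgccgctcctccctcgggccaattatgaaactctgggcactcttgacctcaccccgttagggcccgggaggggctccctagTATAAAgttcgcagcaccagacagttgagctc

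Both windows hold 1 TATA box, 23 bases before the AREG start and 26 bases before the EREG start, as do 10.7% of 35116 promoter windows of the same length. The full cyclic AMP response element lies 57 bases before the AREG start and has no match in the EREG window, and 1.65% of all windows hold it. A GC box match (42.6% of all windows) lies in the AREG window and a TEAD element match (11.9%) in the EREG window. An AP-1 element, held by 6.57% of all windows, matches in neither. Guanine and cytosine made up 65.2% of the AREG window and 58.0% of the EREG window, beside a median of 58.0% over all windows. Of the 10 genes 8 were found in the promoter table; ERBB3 and NRG1 were not. No other of these genes' windows held the cyclic AMP response element, and ERRFI1, the second gene lower in resistant cells with a window, held 1 GC box and none of the other motifs. A match is a description of the letters and not evidence of binding.

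The other ligands were less abundant per length. NRG1 (neuregulin 1, the ligand of ERBB3 and ERBB4) had 147, 125 and 155 CPM in the resistant libraries, against 102, 124 and 112 CPM in the control libraries. The groups separated by less than 1 CPM, between resistant replicate 2 and control replicate 2, and the log2FC was 0.33 (SE 0.12), with 0.27 without resistant replicate 3. NRG1 has many isoforms, which gene counts do not separate. TGFA (transforming growth factor alpha, an EGFR ligand) had 24.6, 23.0 and 19.6 CPM in resistant and 17.5, 14.3 and 17.0 CPM in control libraries, so the groups did not overlap. Its log2FC was 0.48 (SE 0.24), on 285 counts in resistant and 168 in control libraries. HBEGF, the heparin-binding ligand, was low and overlapped, at 9.28 ± 1.32 CPM in resistant and 10.2 ± 0.96 CPM in control cells (SD, n = 3 each; log2FC -0.13, SE 0.34).

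ERRFI1, the feedback inhibitor, was the most abundant of the 10 genes per length. The resistant libraries had 688, 686 and 702 CPM, against 975, 984 and 922 CPM in the control libraries. All resistant libraries lay below all control libraries. Means were 692 ± 8.91 CPM in resistant and 961 ± 33.7 CPM in control cells (SD, n = 3 each), 1.39-fold lower in resistant cells (log2FC -0.47, SE 0.08). Per length, ERRFI1 stood at 4.06, 3.27 and 3.55 times EGFR in the resistant libraries and at 6.65, 5.66 and 6.05 times EGFR in the control libraries. The gene lies on the minus strand at chr1:8004404-8026308, where the antisense gene AL034417.4 overlaps it.

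**Figure D2:**
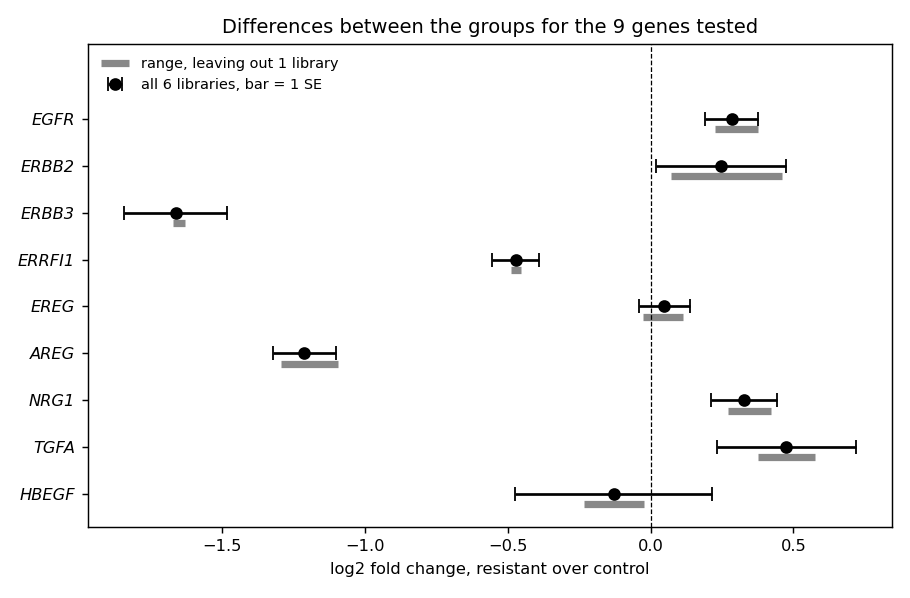
Log2 fold change of resistant over control for the 9 genes that passed the filter (black points, bars of 1 SE), with the range obtained when each library was left out in turn (grey bars). The grey bars of ERBB3, AREG, ERRFI1 and HBEGF stay below 0 and those of EGFR, ERBB2, NRG1 and TGFA above it, while that of EREG crosses 0.

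Ordered by level per length, the resistant libraries ran from ERRFI1 (566 ± 17.3 TPM) through EREG (322 ± 18.0), AREG (217 ± 28.4), EGFR (157 ± 21.1), NRG1 (60.9 ± 5.81), ERBB2 (13.2 ± 1.38), TGFA (13.2 ± 1.39) and HBEGF (9.86 ± 1.35) to ERBB3 (7.67 ± 0.19 TPM), with ERBB4 last (SD, n = 3). Libraries of ERBB2 and TGFA overlapped in that order, and all other neighbours were separate. In control cells the order was ERRFI1 (800 ± 35.8 TPM), AREG (512 ± 20.9), EREG (318 ± 28.2), EGFR (131 ± 11.4), NRG1 (49.1 ± 4.57), ERBB3 (24.8 ± 0.13), ERBB2 (11.4 ± 2.54), HBEGF (11.1 ± 1.01) and TGFA (9.76 ± 1.08 TPM), again with ERBB4 last (SD, n = 3). There, ERBB2, HBEGF and TGFA overlapped their neighbours in the order. The 5 ligands together summed to 623 ± 34.9 TPM in resistant and 900 ± 41.5 TPM in control cells (SD, n = 3 each), and AREG was the one ligand of the 5 whose libraries all lay lower in resistant cells. With the union of all exons as length, NRG1 came to 42.3 TPM in resistant and 33.9 TPM in control cells, TGFA passed ERBB2 in resistant cells, HBEGF passed ERBB2 in control cells, and the other ranks stood. AREG (1240 bases) and EREG (4619 bases) have the same length by both measures, so their order relative to each other could not change here.

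**Figure D3:**
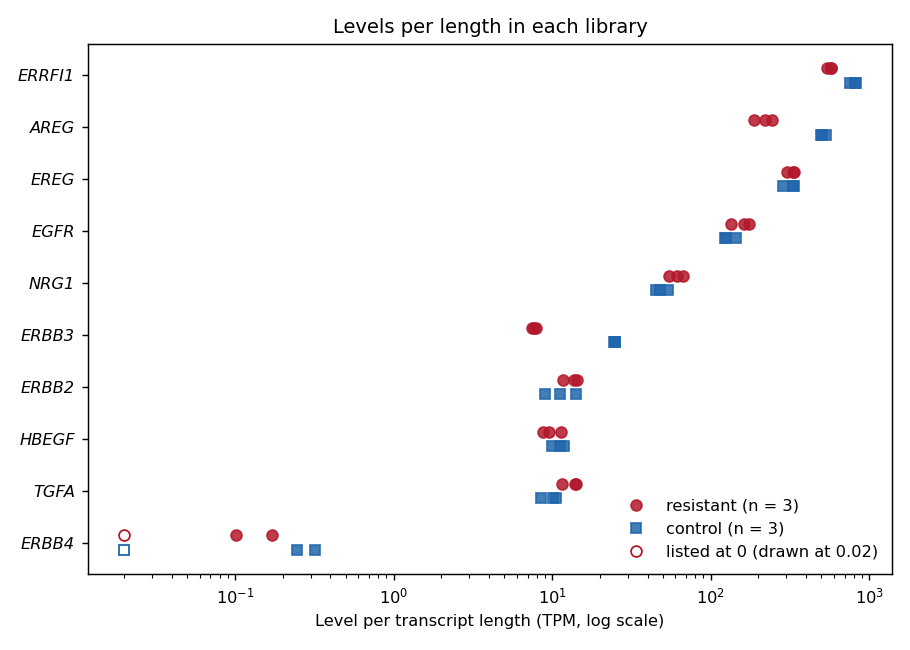
Level per transcript length (TPM, log scale) of each gene in each library (red circles, resistant; blue squares, control; n = 3 each; open symbols at the left edge, libraries with no ERBB4 count). EREG lies right of AREG in resistant libraries and left of it in control libraries, and ERBB3 lies below ERBB2 in resistant cells and above it in control cells.

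Across the 10 genes, 5 had groups that did not overlap, 3 with resistant below control (ERBB3, AREG and ERRFI1) and 2 with resistant above (NRG1 and TGFA). Over all 10804 tested genes 38.1% did not overlap, 18.9% with resistant below and 19.2% with resistant above. In edgeR's quasi-likelihood test 5 of the 9 tested genes passed an adjusted p of 0.05, beside 24.1% of all tested genes. These are not the same set as the 5 without overlap. Since the genes were picked on this contrast, nothing is read from that count.

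A few other genes varied over the libraries much as ERBB3 did. Among 7014 genes with a mean of at least 20 CPM, the 3 closest to ERBB3, by the mean absolute difference of centred log2 CPM over the 6 libraries, were ENTPD5 (0.05), CXCL2 (0.06) and IGFBP1 (0.08), beside a median of 0.83 over all ranked genes. This distance is set largely by the group difference, and a gene without a difference lies about as far off as that median. The log2FC was -1.72 for ENTPD5, -1.697 for CXCL2 and -1.795 for IGFBP1, beside -1.664 for ERBB3. ENTPD5, a nucleotidase of the endoplasmic reticulum, averaged 34.5 ± 1.34 CPM in resistant and 113 ± 9.45 CPM in control cells. The chemokine CXCL2 averaged 14.4 ± 0.67 CPM in resistant and 46.8 ± 3.03 CPM in control cells, and IGFBP1, a secreted binding protein of insulin-like growth factors, 83.4 ± 1.68 CPM in resistant and 289 ± 22.8 CPM in control cells (SD, n = 3 each). For EGFR the closest were SPTBN1 (0.01), a spectrin, USP53 (0.03), of the ubiquitin-specific protease family, and the integrin subunit ITGAV (0.03), beside a median of 0.22. SPTBN1 averaged 2868 ± 272 CPM in resistant and 2348 ± 213 CPM in control cells (SD, n = 3 each).

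The wider ERBB pathway was read through 8 lists of 124 genes, none of them among the 10. These lists too were chosen with earlier results of these data known. Their shares and p-values are therefore a description and not independent support. Of the 112 tested, 17 were higher and 16 lower in resistant cells, 29.5% called beside 24.1% of all tested genes, and their median log2FC was 0.0037 beside -0.0060 for all. The count of lower genes dropped to 10 without resistant replicate 3 or without control replicate 3, with 14 higher in each. Over all tested genes 11.7% were higher and 12.3% lower. Where the gene with the highest mean CPM over the 6 libraries was not called, it is also named for its list, by counts and not by level per length. All p-values named for these genes are adjusted ones from edgeR's quasi-likelihood test over all genes tested.

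Of the 6 remaining ligands, 3 were tested. NRG4, a neuregulin for ERBB4, fell in resistant cells. It had 3, 0 and 0 counts in the resistant libraries, against 8, 34 and 12 counts in the control libraries, a ratio of 0.046 (95% exact interval 0.0092 to 0.14, counting error only) and an adjusted p of 0.000582. The exact interval may be too narrow, since most non-zero counts in these libraries were even. The fitted log2FC of NRG4, -4.16, depends on how so few counts are treated. It ran from -7.25, without resistant replicate 1, to -3.52 over the 15 alternatives that gave a value. Halved counts gave none for NRG4. EGF averaged 3.47 ± 1.63 CPM in resistant and 8.21 ± 1.92 CPM in control cells (SD, n = 3 each) and did not pass (adjusted p = 0.0559). BTC did not pass either (log2FC -0.33, SE 0.37, adjusted p = 0.576). In limma-voom 2 of the 3 were called lower. EPGN had 2 counts in each group, NRG3 had 0 in resistant and 2 in control, and NRG2 had none.

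Ligand processing genes were lower in 4 of 11, beside 12.3% of all tested genes, and higher in 1 of 11, beside 11.7%. FURIN, the proprotein convertase that activates ADAM proteases, fell to 67.4, 71.5 and 84.1 CPM in resistant libraries, against 134, 124 and 124 CPM in control libraries (log2FC -0.77, SE 0.12, adjusted p = 7.78e-06). ADAM17, the main sheddase of AREG, EREG, TGFA and HBEGF precursors, fell to 66.7 ± 4.17 CPM in resistant cells, against 92.1 ± 0.84 CPM in control cells (log2FC -0.46, SE 0.13, adjusted p = 0.00708). RHBDF2, which carries ADAM17 to the cell surface, and ADAM10 were also lower, with log2FC of -0.64 and -0.29, and ADAM12 was higher at 0.67; these 3 were named after their values were seen. ADAM9 did not pass (log2FC 0.04, SE 0.09). The lower count was 2 without resistant replicate 3 or control replicate 3, and the higher one 0 without resistant replicate 3 or control replicate 2.

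Adaptors and effectors were lower in 4 of 22, beside 12.3% of all tested genes, and higher in 0 of 22, beside 11.7%. Both directions together gave 18.2% called, below the 24.1% of all tested genes. STAT3, a transcription factor activated by the receptors, fell to 96.3 ± 7.44 CPM in resistant cells, against 134 ± 6.22 CPM in control cells (log2FC -0.47, SE 0.12, adjusted p = 0.00212). GAB1, a docking protein for phosphoinositide 3-kinase, had a log2FC of -1.02 (SE 0.29, adjusted p = 0.00817) with overlapping groups. Its call was lost without resistant replicate 3 (adjusted p = 0.0684) or control replicate 1 (0.148), within a range of 0.00165 to 0.148 over the alternatives. SHC1 (-0.28) and SOS1 (-0.38), named after their values were seen, were lower too, and GRB2 did not pass (log2FC 0.14, SE 0.09). The lower count was 2 without control replicate 1 or control replicate 3, and 1 without resistant replicate 3. Without resistant replicate 1, 1 gene of the list was higher.

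Genes listed under receptor attenuation were higher in 5 of 16, beside 11.7% of all tested genes, and lower in 2 of 16, beside 12.3%. The heading does not mean that each gene of the list, LRIG2 and UBASH3B included, restrains the receptors. PA2G4, an ERBB3-binding protein also called EBP1, rose to 347, 307 and 307 CPM in resistant libraries, against 213, 198 and 219 CPM in control libraries (log2FC 0.61, SE 0.10, adjusted p = 7.62e-06). LRIG2, of a family of leucine-rich membrane proteins that act on ERBB receptors, rose to 28.2, 32.2 and 25.6 CPM in resistant libraries, against 8.23, 9.04 and 15.6 CPM in control libraries (log2FC 1.37, SE 0.26, adjusted p = 9.28e-05). RNF41, the ubiquitin ligase known for degrading ERBB3, was higher (0.46), as were SOCS4 (0.57) and PTPN1 (0.33), while LRIG1 (-0.55) and the phosphatase PTPRJ (-0.47) were lower; these 5 were named after their values were seen. The lower count was 0 without resistant replicate 1, resistant replicate 3 or control replicate 2, and 1 without resistant replicate 2 or control replicate 3, in DESeq2, and with either other filter.

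Receptor trafficking genes were higher in 4 of 18, beside 11.7% of all tested genes, and lower in 0 of 18, beside 12.3%. In both directions together 22.2% were called, near the 24.1% of all tested genes. REPS2 of this list failed the filter on low counts and is outside these shares. Named after its values were seen, it had 0 counts in all resistant libraries, against 8, 10 and 6 counts in control libraries. HGS and STAM, which together sort ubiquitinated receptors at endosomes, both rose. HGS reached 443, 357 and 384 CPM in resistant libraries, against 206, 263 and 246 CPM in control libraries (log2FC 0.72, SE 0.10, adjusted p = 9.45e-07). STAM averaged 99.8 ± 5.49 CPM in resistant and 57.6 ± 3.50 CPM in control cells (SD, n = 3 each; log2FC 0.80, SE 0.13, adjusted p = 1.42e-05). The endocytic adaptors EPS15 (0.50) and EPN2 (0.51), named after their values were seen, were higher, and clathrin heavy chain, CLTC, did not pass (log2FC -0.04, SE 0.09). Without resistant replicate 1 the list had 2 higher and 1 lower, and either other filter gave 4 higher and 1 lower. Of the 5 genes listed under receptor chaperones, 1 was higher, beside 11.7% of all tested genes, and 0 were lower, beside 12.3%. That heading does not mean that each gene of the list, ERBIN included, encodes a chaperone. HSP90AB1, whose protein stabilises ERBB2, rose to 1436 ± 5.80 CPM in resistant cells, against 1086 ± 6.23 CPM in control cells (log2FC 0.40, SE 0.08, adjusted p = 0.000193). The other 4 did not pass, and without resistant replicate 1 the list had 2 higher.

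Transcription regulators of ERBB genes were higher in 1 of 15, beside 11.7% of all tested genes, and lower in 2 of 15, beside 12.3%. The 20% called in either direction is below the 24.1% of all tested genes. FOXA1, a pioneer factor, had a log2FC of -0.83 (SE 0.24, adjusted p = 0.00926), and its call was lost without resistant replicate 2 (0.069) or control replicate 1 (0.0981), within 0.00439 to 0.0981 over the alternatives. FOXO3, a forkhead factor known for inducing ERBB3, had a log2FC of 0.34 (SE 0.12, adjusted p = 0.03), and its call was lost in DESeq2 (0.056) and without resistant replicate 2 (0.139), resistant replicate 3 (0.109), control replicate 1 (0.114) or control replicate 3 (0.062), within 0.00696 to 0.139. ETV4, named after its values were seen, was lower (-0.40). ELF3 did not pass (log2FC -0.0027, SE 0.09). Without resistant replicate 2 or control replicate 1 none of the 15 was called in either direction, without resistant replicate 3 the list had 0 higher and 3 lower, without control replicate 3 it had 0 higher and 1 lower, and without resistant replicate 1 it had 1 higher and 1 lower. The count was 0 higher and 1 lower in DESeq2, 1 lower with a minimum of 1 CPM in 3 libraries, 3 lower with library totals and 4 lower with halved counts.

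Early target genes of EGFR signalling moved in both directions, with 5 of 22 higher, beside 11.7% of all tested genes, and 3 of 22 lower, beside 12.3%. CCND1 (cyclin D1) rose to 366, 384 and 356 CPM in resistant libraries, against 148, 228 and 218 CPM in control libraries (log2FC 0.88, SE 0.11, adjusted p = 8.00e-08). PLAUR, the urokinase receptor, rose to 47.1 ± 3.68 CPM in resistant cells, against 18.9 ± 2.34 CPM in control cells (log2FC 1.30, SE 0.19, adjusted p = 1.67e-06). The immediate-early factors EGR1 (-0.47) and FOS (-0.41) and the phosphatase DUSP5 (-0.44) were lower, and KLF6 (0.46), LIF (0.72) and SPRY2 (0.49) were higher; these 6 were named after their values were seen. PHLDA1 did not pass in edgeR (log2FC 0.21, SE 0.09, adjusted p = 0.0831) but did in DESeq2 (0.0354), within 0.0354 to 0.267 over the alternatives.

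**Figure D4:**
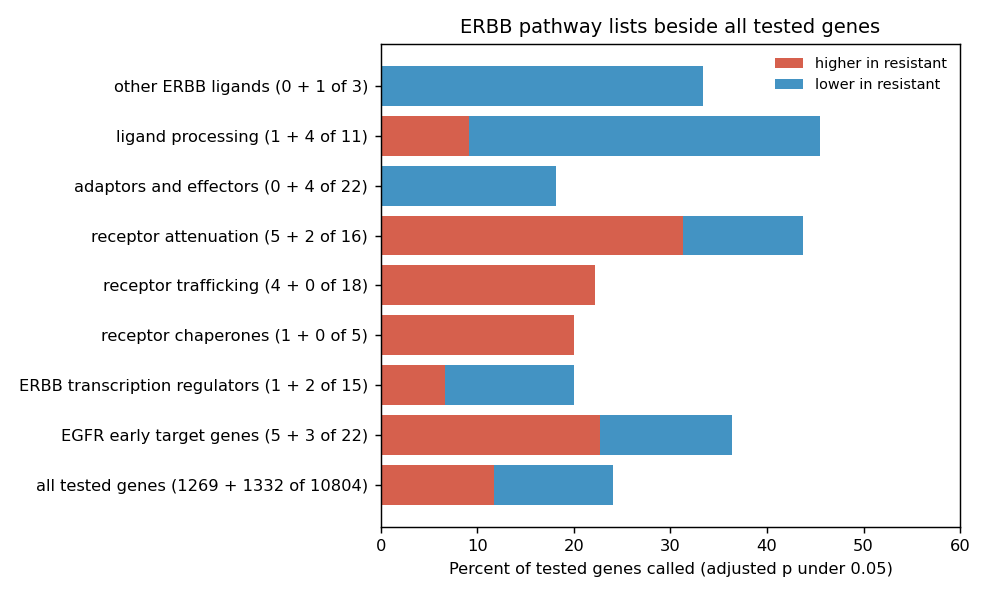
Percent of tested genes called higher (red) and lower (blue) in resistant cells at an adjusted p of 0.05 in each ERBB pathway list and among all tested genes (bottom row); labels give the number higher plus the number lower of those tested. Ligand processing has 4 of its 5 calls lower, and receptor trafficking has all 4 of its calls higher, with REPS2 not tested. Over all tested genes 11.7% were higher and 12.3% lower. Without resistant replicate 3 ligand processing had 0 higher and 2 lower, and without resistant replicate 1 receptor trafficking had 2 higher and 1 lower.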

How the data were processed

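The 3 resistant and 3 control libraries were grouped by their titles. RNA was isolated with Trizol and columns and libraries were built by the EasyRNA-seq protocol, per the labels. Trimmomatic, HISAT2 and Bowtie2 appear in the submitters' processing notes. The build, annotation, read counter and strand setting were not given in the sources used here. The authors deposited raw integer counts for each gene symbol; the table of all libraries equalled the single files, and 27 symbols turned into dates were renamed by Entrez ID. Of non-zero counts 63.6 to 69.1% were even, so counting errors may be too small. The smallest chi-square per degree of freedom between replicates (halved counts) was 1.78, so none was taken as a repeat.

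Genes were filtered with filterByExpr (10804 kept), TMM-scaled, and compared by edgeR's quasi-likelihood test (edgeR 4.0.16, R 4.3.3) with group as covariate, Benjamini-Hochberg adjustment over all tested genes and calls at 0.05; the test was tried on simulated data. CPM use TMM-scaled totals of tested genes; log2 CPM use a prior count of 2. The SE is the log2FC over the square root of F. TPM were computed from the counts and GENCODE 29 lengths.

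Genes and lists were chosen with earlier results of these data known. Named genes are the 10; per list, the 2 called genes with the smallest p and the gene of highest mean CPM over all libraries if not called; and the 3 patterns nearest to ERBB3 and EGFR. Others are marked. PLEKHG5 and HDAC2 of the series title were reserved for a label check and are not reported here. Alternatives tried were scaling by library total, RLE or upper quartile, no filter, a minimum of 1 CPM in 3 libraries, DESeq2 1.42.0, voom of limma 3.58.1, halved counts, an adjusted p of 0.01, a replicate block and leaving out each library. Figures used matplotlib 3.10.9.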

Additional observations from a re-analysis of the deposited data

How the results depend on the processing

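At an adjusted p of 0.01 the calls dropped to 800 higher and 851 lower over all genes, and to 12 higher and 9 lower over the ERBB pathway lists. Leaving out each library gave 1028 to 1107 higher and 973 to 1154 lower genes, and 14 to 17 higher and 10 to 13 lower pathway genes; fewer samples entered these fits. The other 9 alternatives kept all 4 counts within 1.5 times. With no filter, DESeq2, or a minimum of 1 CPM in 3 libraries, 14 pathway genes were lower. Directions of ERBB3, AREG, ERRFI1, HBEGF, EGFR, ERBB2, NRG1 and TGFA were the same in all 15 alternatives, and EREG turned to -0.03 without control replicate 2. Near 0, CLTC ranged from -0.087 without control replicate 2 to 0.0154 without control replicate 1, and ELF3 turned to 0.0096 with no filter, 0.0151 with a minimum of 1 CPM in 3 libraries and 0.0028 in DESeq2, and ranged from -0.0515 without control replicate 2 to 0.0759 without control replicate 3; neither was called in any of these, and the cause was not tested. Among the genes whose pattern is nearest to EGFR, SPTBN1, USP53 and ITGAV lost their calls in 2, 7 and 5 of 16 alternatives.

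Equal replicate numbers did not mark shared material: deviations from the group means correlated at -0.02, 0.03 and -0.01 across genes for numbers 1, 2 and 3, and not every library matched its own number best. With a replicate block 1248 genes were higher and 1270 lower, and 17 and 15 pathway genes; the receptor attenuation list then had 5 higher and 1 lower. Depth limits ERBB4, NRG4, EPGN, NRG2 and NRG3. As a rough upper limit for a library without a count, 3 counts were taken, which came to 0.565 to 1.54 CPM.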
